A study of Arabidopsis thaliana with 104 samples.

Results

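The Pi by SynCom interaction in the double mutant phr1 phl1 is the difference between a pair of low-phosphate responses: that of seedlings grown with a synthetic bacterial community (SynCom) and that of seedlings grown without bacteria. It was measured in all 24 phr1 phl1 libraries, chosen by their genotype label from a series that also holds 40 phr1 and 40 Col-0 libraries. They came from 3 independent experiments, C, D and E, each with 2 libraries in each of 4 groups, so that a group held 6. The groups were phr1 phl1 at low inorganic phosphate (Pi, 50 µM) with SynCom, at high Pi (625 µM) with SynCom, at low Pi without bacteria and at high Pi without bacteria. All seedlings carried both mutations and had germinated for 7 days on 1 mM Pi and 0.5% sucrose before 12 days of treatment. Polyadenylated RNA of whole seedlings was sequenced. The labels give neither the mutant alleles nor whether the 2 libraries of a group in one experiment came from separate plates, so the p-values measure the spread between these libraries. For comparison, 24 phr1 and 24 Col-0 libraries of the same experiments, in the same 4 conditions, were fitted together with the 24 of phr1 phl1. Col-0 is the wild-type reference accession.

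PHR1 and its relative PHL1 are transcription factors of the MYB family that bind an imperfect palindrome in the promoters of phosphate starvation genes and switch these genes on. SPX proteins restrain PHR1 when Pi is plentiful. Plants short of Pi raise Pi transporters, secrete phosphatases and replace membrane phospholipids by sulfolipids and galactolipids, and plants that lack both PHR1 and PHL1 lose most of this programme.

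PHR1 mRNA ran from 20.7 to 56.7 scaled counts per 1000000 (CPM) in phr1 phl1, with a median of 37.3. It ran from 28.3 to 54.0 CPM in phr1 (median 41.8) and from 51.8 to 82.5 CPM in Col-0 (median 70.0), over 24 libraries each. PHL1 mRNA was higher in every phr1 phl1 library than in every library of the other genotypes: 42.1 to 949 CPM with a median of 101 in phr1 phl1, against 5.67 to 24.6 CPM in phr1 and 6.75 to 22.8 CPM in Col-0. Reads that fall outside a disrupted part of a gene do not test whether a working protein was made, and PHR1 overlaps another annotated gene. Total counts per phr1 phl1 library ran from 955174 to 6852137 with a median of 3064605. Libraries differed most by experiment, to which 94.0% of the first principal component was tied (45.4% of the variance). Libraries 2 of experiment E at low Pi without bacteria (955174 counts) and 1 of experiment D at high Pi without bacteria (residual SD 0.628) stood apart, and results were also computed without them.

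Phosphate starvation genes and genes of protein folding in the endoplasmic reticulum (ER) stood among the 497 genes whose Pi response differed with SynCom in phr1 phl1. These were 2.92% of the 17016 genes tested and passed an adjusted p of 0.05 by the quasi-likelihood test of edgeR. The Pi response with SynCom was the higher one for 288 genes (1.69%) and the lower one for 209 (1.23%). Called genes that were higher had a median interaction of 1.23 on the log2 scale, from 0.45 to 4.40, against a median of 0.04 over all genes tested. Their median Pi response, low minus high Pi, was 1.07 with SynCom and -0.08 without bacteria. For the called genes that were lower the median interaction was -0.89, from -3.52 to -0.47, with a median Pi response of -0.78 with SynCom and 0.12 without bacteria. The separate Pi responses differed in the same way in their counts. Low against high Pi changed 3259 genes with SynCom (19.2%), 1785 higher (10.5%) and 1474 lower (8.66%). Without bacteria it changed 0 genes (0%) in edgeR, in DESeq2 and in limma-voom, with 826 at an unadjusted p under 0.05 in edgeR.

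Experiments C and D carried most of the size of the interaction. The 288 higher genes had medians of 1.39, 1.67 and 0.47 in experiments C, D and E fitted alone, and the 209 lower ones -1.09, -1.14 and -0.40. All 3 experiments gave 1 sign for 468 of the 497, but these genes were called from the same experiments, which favours agreement in sign. In experiment E alone the sign matched that of the joint fit for 272 of 283 higher and 200 of 206 lower genes. Over all genes tested it matched for 10359 of 16532. Fitted alone, experiment C called 1733 genes, experiment D called 2 with 3145 at an unadjusted p under 0.05, and experiment E called 0 with 322 at an unadjusted p under 0.05. A test of whether the interaction differed among the 3 experiments called 0 genes in edgeR, with 2109 at an unadjusted p under 0.05, and no other tool was run for it. The count of calls over all libraries was 0 without experiment C, 4 without experiment D and 2243 without experiment E. It was also 0 when the 2 libraries of a group in an experiment were summed into 1, and it changed to 486 without the pair of libraries that stood apart.

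**Figure D1:**
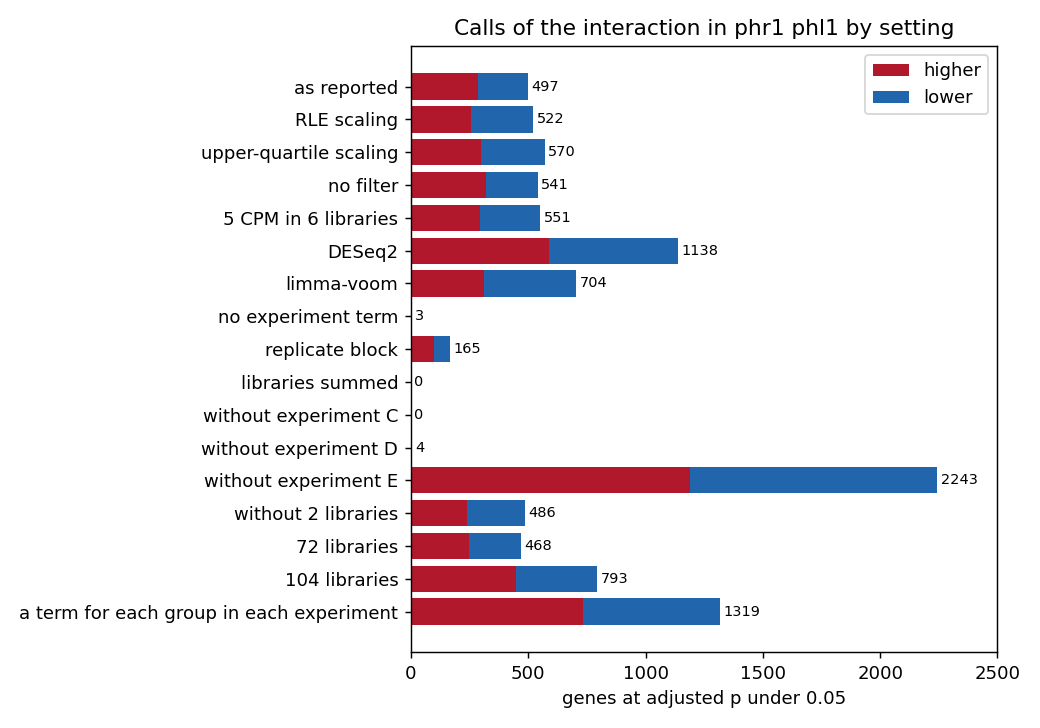
Genes called for the Pi by SynCom interaction in phr1 phl1 (x axis, number at adjusted p under 0.05) in the analysis as reported and under each other setting (y axis), higher in red and lower in blue. Scalings and filters on low counts left the count between 497 and 570, while leaving out an experiment moved it between 0 and 2243.

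Genes of Pi signalling and transport rose at low Pi with SynCom, while the Pi response without bacteria was called for no member. Of 29 members of this list 19 were tested and 8 rose in the interaction, namely AT4, SPX1, PHT1;4, PHT1;1, PHF1, G3Pp1, WRKY6 and PHO2, with 0 lower. Among all genes tested 1.69% rose. The median over the 19 was 1.13, made up of 1.26, 2.0 and 0.44 in the single experiments C, D and E. The members left out for low counts were SPX3, PHT1;2, PHT1;3, PHT1;5 to PHT1;9, PHT5;2 and MYB62, whose highest group mean was 2.28 CPM. Without the pair of libraries that stood apart 7 rose, and without experiment C or D 0 did. In experiment E without bacteria, both low Pi libraries lay above both high Pi ones for AT4, SPX1 and PHT1;4, but not for PHO2 or IPS1. For AT4 these were 23.9 and 34.5 CPM at low Pi, against 13.1 and 14.7 CPM at high Pi. Fitted alone, experiment E called 0 genes for this Pi response.

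The non-coding RNA AT4, a target mimic that sequesters the microRNA against PHO2, gave the largest interaction among the genes named by fold. It held 26.4, 329 and 480 CPM (lowest, median and highest of 6 libraries) at low Pi with SynCom, against 4.70, 9.55 and 23.0 CPM at high Pi with SynCom. Without bacteria AT4 held 8.0, 22.1 and 42.2 CPM at low Pi and 13.1, 15.5 and 24.3 CPM at high Pi. All 6 libraries at low Pi with SynCom lay above all 6 at high Pi with SynCom, and 5 lay above all at low Pi without bacteria. The exception was library 1 of experiment E. The Pi response of AT4 was 4.56 ± 0.48 with SynCom and 0.45 ± 0.45 without bacteria (log2 ± SE, 6 libraries in each group), an interaction of 4.11 ± 0.65 with an adjusted p of 0.00445 in edgeR.

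SPX1 encodes a Pi-dependent inhibitor of PHR1. Its level was 23.1, 121 and 144 CPM at low Pi with SynCom, against 10.7, 13.5 and 16.5 CPM at high Pi with SynCom. Without bacteria it was 9.22, 18.9 and 24.4 CPM at low Pi and 7.45, 12.9 and 17.6 CPM at high Pi. The groups with SynCom did not overlap, and the groups without bacteria did. The interaction was 2.53 ± 0.44 (adjusted p = 0.00756 in edgeR). For PHT1;4, a high-affinity Pi transporter, the levels were 21.7, 32.1 and 48.4 CPM at low Pi with SynCom, against 2.2, 2.89 and 8.88 CPM at high Pi with SynCom. Every library at low Pi with SynCom was above every library of the other groups with SynCom or at low Pi, and the interaction was 2.51 ± 0.49 (adjusted p = 0.0135 in edgeR). PHT1;1 rose by 2.04 ± 0.48, but PHT1;2 and PHT1;3 are nearly identical to it, which leaves its reads uncertain.

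PHO2, whose product marks Pi transporters for breakdown, was among the members that rose. It held 563, 617 and 972 CPM at low Pi with SynCom, against 177, 262 and 564 CPM at high Pi with SynCom. Without bacteria the groups lay between, at 347, 391 and 584 CPM at low Pi and 299.6, 349.8 and 641.6 CPM at high Pi. At low Pi with SynCom 5 of 6 libraries were above all at high Pi with SynCom, and the interaction was 1.13 ± 0.20 (adjusted p = 0.00904 in edgeR). PHF1, which lets Pi transporters leave the ER, rose by 1.21 ± 0.28. G3Pp1, a glycerol-3-phosphate permease gene, rose by 2.12 ± 0.50, and the transcription factor gene WRKY6 by 1.76 ± 0.47.

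IPS1, a second target mimic, missed the threshold in the interaction, at 1.52 ± 0.56 (adjusted p = 0.119 in edgeR), and is given because it is a standard marker of Pi starvation. Its levels were 6.70, 23.2 and 59.9 CPM at low Pi with SynCom and 4.01, 6.49 and 9.48 CPM at high Pi with SynCom. Without bacteria they were 0.612, 1.55 and 3.88 CPM at low Pi and 0.760, 1.12 and 2.55 CPM at high Pi. SynCom thus raised IPS1 at both Pi levels, by 3.64 at low Pi (adjusted p = 1.5e-06) and by 2.12 at high Pi (adjusted p = 0.0043). SynCom against no bacteria changed 2157 genes at low Pi (12.7%), 1253 higher (7.36%) and 904 lower (5.31%). At high Pi it changed 339 (1.99%), 92 higher (0.541%) and 247 lower (1.45%).

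**Figure D2:**
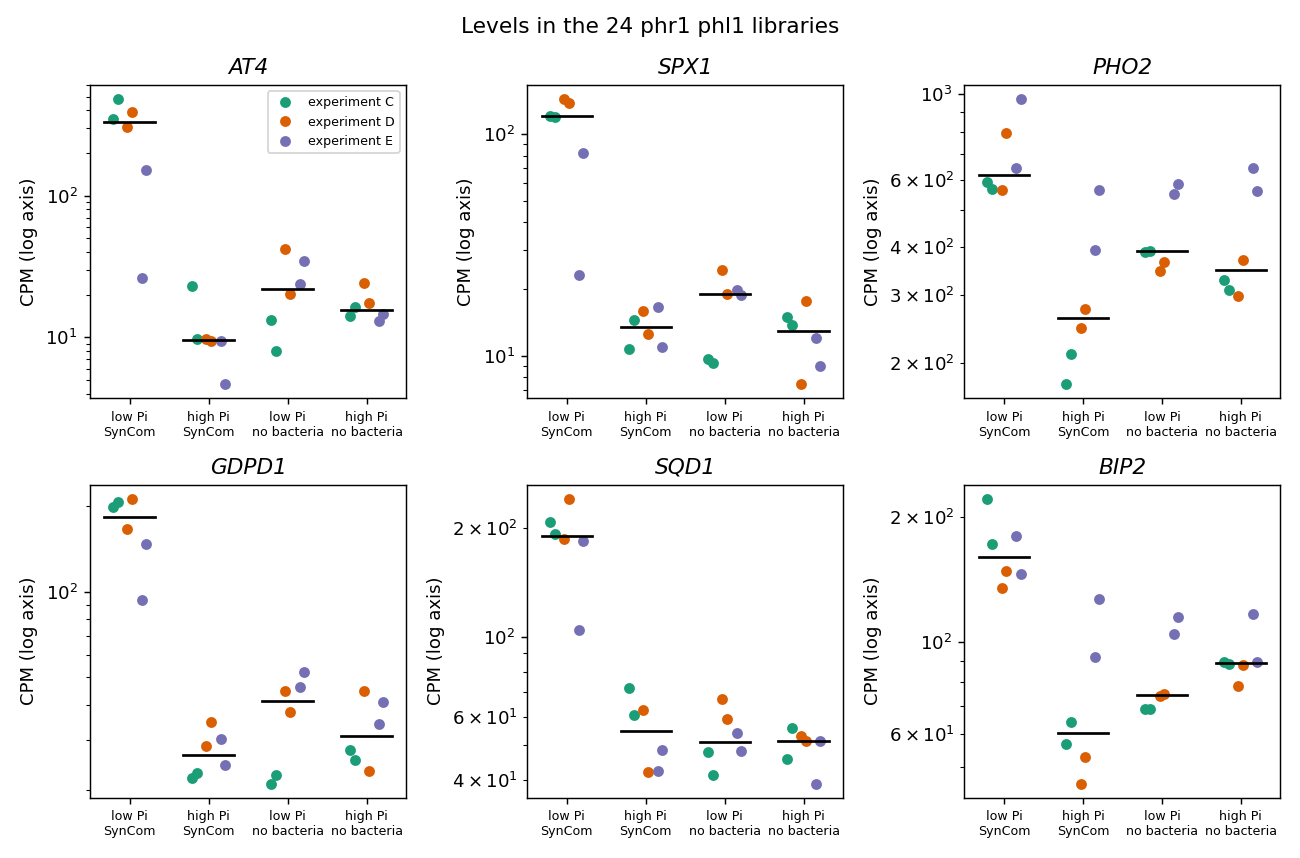
Level of 6 genes in each of the 24 phr1 phl1 libraries (y axis, CPM on a log axis) by condition (x axis), coloured by experiment, with a line at each group's median of 6. At low Pi with SynCom the medians were 329 CPM for AT4, 121 CPM for SPX1, 617 CPM for PHO2, 183 CPM for GDPD1, 189 CPM for SQD1 and 160 CPM for BIP2, each above the medians of the other 3 conditions, and the lowest point for AT4, SPX1, GDPD1 and SQD1 there came from experiment E.

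Phosphatase and Pi scavenging genes moved the same way. Of 20 members 13 were tested and 6 rose: PPsPase1, PAP17, LPR2, PPCK1, AT1G13750 and PAP12, with 0 lower and a median of 1.14 over the 13. Among all genes tested 1.69% rose. The median was 1.24, 1.36 and 0.26 in C, D and E fitted singly, and without experiment C or D 0 members rose. PPsPase1, a pyrophosphatase of Pi-starved plants, held 8.56, 24.8 and 33.7 CPM at low Pi with SynCom, against 0.256, 1.31 and 3.12 CPM at high Pi with SynCom. In the absence of bacteria it held 0.459, 1.74 and 6.53 CPM at low Pi and 1.07, 1.83 and 4.31 CPM at high Pi. Every library at low Pi with SynCom was above every library at high Pi with SynCom and at low Pi without bacteria. Its interaction was 3.87 ± 0.77 (adjusted p = 0.0139 in edgeR), from 6.50 in experiment C alone to 1.26 in experiment E alone. The libraries of E without bacteria held 6.53 and 6.27 CPM at low Pi, against 1.42 and 2.13 CPM at high Pi.

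The purple acid phosphatase gene PAP17 held 36.2, 56.3 and 135.5 CPM at low Pi with SynCom, against 3.07, 6.74 and 20.9 CPM at high Pi with SynCom. At low Pi without bacteria it held 4.83, 5.91 and 35.5 CPM, and at high Pi 5.61, 6.27 and 7.90 CPM. Its interaction of 2.41 ± 0.56 (adjusted p = 0.0289 in edgeR) was 3.40 in experiment C, 4.37 in D and 0.15 in E. The libraries of E without bacteria held 20.0 and 35.5 CPM at low Pi, against 6.16 and 7.90 CPM at high Pi. LPR2, a multicopper oxidase that acts in the root response to low Pi, rose by 1.15 ± 0.21. PPCK1, the kinase that activates phosphoenolpyruvate carboxylase, rose by 1.14 ± 0.24, the purple acid phosphatase gene AT1G13750 by 1.38 ± 0.33 and PAP12 by 0.73 ± 0.20. PAP10, also a purple acid phosphatase gene, stood at 1.23 with an adjusted p of 0.0522 in edgeR. PAP17, PPCK1 and AT1G13750 overlap another annotated gene, and the libraries carry no strand, so part of their signal is uncertain. The members not tested were PAP14, PAP22 to PAP25, PPCK2 and LPR1, with a highest group mean of 3.67 CPM.

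The smallest p-values of all genes belonged to membrane lipid genes. Of 19 genes of lipid remodelling 15 were tested and 5 rose, GDPD1, SQD1, PLDZETA2, MGD2 and DGD1, with 0 lower and a median of 0.81. Among all genes tested 1.69% rose. GDPD1, a glycerophosphodiesterase that releases glycerol-3-phosphate from lipid head groups, held 93.8, 183 and 213 CPM at low Pi with SynCom, against 22.0, 26.6 and 34.9 CPM at high Pi with SynCom. Without bacteria it held 21.1, 41.2 and 52.2 CPM at low Pi and 23.4, 31.0 and 44.7 CPM at high Pi. No library of another group reached the lowest at low Pi with SynCom. The interaction was 2.55 ± 0.30 (adjusted p = 0.000323 in edgeR) and stood at 3.46, 2.33 and 1.72 when C, D and E were each fitted alone.

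SQD1 makes the sugar donor of sulfolipid. It held 104.6, 189 and 241 CPM at low Pi with SynCom, against 42.1, 54.7 and 71.8 CPM at high Pi with SynCom. The levels without bacteria were 41.5, 51.1 and 67.2 CPM at low Pi and 39.1, 51.4 and 55.9 CPM at high Pi. The 3 other groups lay on top of each other, and all 6 libraries at low Pi with SynCom lay above them. The interaction of 1.65 ± 0.21 (adjusted p = 0.000532 in edgeR) was the steadiest over experiments among these genes, at 1.77, 1.77 and 1.44. The phospholipase D gene PLDZETA2 held 10.6, 15.1 and 29.5 CPM at low Pi with SynCom, against 1.06, 2.33 and 7.13 CPM at high Pi with SynCom, and rose by 2.29 ± 0.40. MGD2, a galactolipid synthase, held 31.3, 43.8 and 57.4 CPM against 8.82, 9.96 and 11.3 CPM in the same groups and rose by 2.14 ± 0.39. DGD1, which makes digalactolipid, rose by 0.81 ± 0.20. The sulfolipid synthase gene SQD2 stood at 1.08 with an adjusted p of 0.0548 in edgeR. GDPD1 and PLDZETA2 overlap another annotated gene. NPC4, NPC5, GDPD3 and GDPD6 were not tested, with a highest group mean of 2.77 CPM. Without experiment C 0 members of this list rose, and without D 2 did.

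The sequences upstream of these genes are shown because the mutated factors act through promoters. The 300 bases before the annotated start are printed 5′ to 3′ on the gene's strand (RefSeq, TAIR10.1), with matches to the PHR1 binding sequence P1BS, GNATATNC, in capitals. This motif reads alike on both strands. AT4 (chr5:894282-894581, plus strand) has a match that begins 26 bases before the start, PPsPase1 (chr1:27466349-27466648, minus strand) 217 bases before and PLDZETA2 (chr3:1634894-1635193, plus strand) 180 bases before. GDPD1 (chr3:350011-350310, minus strand) has 2 matches, and SQD1 (chr4:15935073-15935372, plus strand) has none in this window.
AT4: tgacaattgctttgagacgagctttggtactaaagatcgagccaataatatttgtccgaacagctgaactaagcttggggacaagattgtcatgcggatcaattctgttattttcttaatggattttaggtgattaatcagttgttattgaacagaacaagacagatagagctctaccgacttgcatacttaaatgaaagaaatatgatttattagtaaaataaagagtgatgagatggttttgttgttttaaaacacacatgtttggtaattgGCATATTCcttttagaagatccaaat
PPsPase1: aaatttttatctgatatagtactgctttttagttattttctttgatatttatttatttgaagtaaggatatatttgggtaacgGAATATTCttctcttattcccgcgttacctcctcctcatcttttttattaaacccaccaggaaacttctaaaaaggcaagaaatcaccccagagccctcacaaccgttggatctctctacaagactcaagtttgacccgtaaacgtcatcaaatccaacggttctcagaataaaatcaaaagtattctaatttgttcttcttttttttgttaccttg
PLDZETA2: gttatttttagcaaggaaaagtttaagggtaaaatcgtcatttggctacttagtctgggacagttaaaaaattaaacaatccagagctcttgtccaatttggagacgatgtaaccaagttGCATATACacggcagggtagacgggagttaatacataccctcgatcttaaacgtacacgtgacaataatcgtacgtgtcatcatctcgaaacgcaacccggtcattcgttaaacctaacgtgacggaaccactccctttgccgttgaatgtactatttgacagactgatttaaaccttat
GDPD1: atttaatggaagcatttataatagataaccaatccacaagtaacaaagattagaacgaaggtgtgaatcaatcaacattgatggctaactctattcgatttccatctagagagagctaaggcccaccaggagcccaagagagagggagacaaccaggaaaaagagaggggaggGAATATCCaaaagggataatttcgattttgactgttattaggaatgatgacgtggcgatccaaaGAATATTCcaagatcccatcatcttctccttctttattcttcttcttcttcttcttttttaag
SQD1: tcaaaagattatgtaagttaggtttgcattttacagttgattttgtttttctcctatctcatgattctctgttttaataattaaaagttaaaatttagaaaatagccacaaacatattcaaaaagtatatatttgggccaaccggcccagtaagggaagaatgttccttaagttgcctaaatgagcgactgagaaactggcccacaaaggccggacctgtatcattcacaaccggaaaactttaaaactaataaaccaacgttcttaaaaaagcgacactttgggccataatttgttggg

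Of the 19 called genes of the 3 Pi starvation lists 7 held the motif in this window (36.8%), and 6 of the 28 members tested but not called did (21.4%). Among all genes tested with an upstream sequence 1107 of 17004 held it (6.51%). It occurred before 39 of the 288 called genes that were higher (13.5%) and before 14 of the 208 called genes that were lower and had a sequence (6.73%). SQD1, SPX1 and PHO2 rose in the interaction and hold no match in these letters and this window.

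Genes of protein folding in the ER were also higher at low Pi with SynCom. This list of 29 chaperones, disulphide isomerases and transporters was added after values were seen, because BIP2 and CNX1 were called with small p-values. Its count therefore describes the group and does not test it. Of its 29 members, all tested, 14 rose and 0 fell, with a median of 1.00, where 1.69% of all genes tested rose. The members were the chaperone genes BIP1, BIP2, CNX1, CRT1, CRT2, ERDJ3B, P58IPK and SDF2, the disulphide isomerase genes PDIL1-1, PDIL1-2, PDIL2-1 and PDIL2-2, and the nucleotide sugar transporter genes UTR1 and UTR3. Without the pair of libraries that stood apart 12 rose, with a median of 0.67. With experiment C or D left out, with summed libraries or without an experiment term 0 rose. The list median was 1.18, 0.91 and 0.29 in experiments C, D and E fitted alone. BIP1 and BIP2 are close copies of each other, so their reads may be shared, and PDIL2-1, P58IPK and UTR3 overlap another annotated gene.

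BIP2, the main chaperone of the ER lumen, held 134.7, 159.8 and 220.7 CPM at low Pi with SynCom, against 45.6, 60.5 and 127 CPM at high Pi with SynCom. Without bacteria it held 68.8, 74.5 and 115 CPM at low Pi and 78.4, 89.0 and 116 CPM at high Pi. All 6 libraries at low Pi with SynCom were above those of both groups compared with them. The interaction was 1.41 ± 0.22 (adjusted p = 0.00445 in edgeR), at 2.06, 1.70 and 0.45 by experiment for C, D and E. The calnexin gene CNX1 held 173, 232 and 382 CPM at low Pi with SynCom, against 69.7, 101 and 136 CPM at high Pi with SynCom, with an interaction of 1.28 ± 0.22 (adjusted p = 0.00756 in edgeR). UTR1 rose by 2.0 ± 0.38 and PDIL2-2 by 1.96 ± 0.40. None of the 14 called members held the P1BS motif in the upstream window. Of all genes tested with an upstream sequence 6.51% held it, and for 14 genes a count of 0 lies near that share.

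Folds were ranked among called genes of at least 1 CPM in a group with 1 sign in all 3 experiments. Among the 10 highest of these, GSTU11, a glutathione transferase gene, rose by 3.81 ± 0.85 (adjusted p = 0.0247 in edgeR). The locus AT1G23110 rose by 3.52, the cysteine-rich membrane module gene AT3G22235 by 3.14, the glycosyltransferase gene AT5G49690 by 2.90 and AT5G47740 by 2.78. The peroxidase gene AT5G39580, the xyloglucan-modifying gene XTR6 and the phosphoglycerate mutase family gene AT1G09932 rose by 3.23, 3.15 and 2.81. For these last 3 genes the Pi response without bacteria was negative, at -2.19, -1.42 and -1.54, though not called, and it made up part of the interaction. AT1G65970, a thioredoxin-dependent peroxidase gene, rose by 2.21 ± 0.31 (adjusted p = 0.00153 in edgeR), at 2.05, 2.79 and 1.72 within C, D and E. It held 29.0, 67.2 and 87.6 CPM at low Pi with SynCom, against 6.79, 11.8 and 14.8 CPM at high Pi with SynCom. At low Pi without bacteria it held 6.27, 10.6 and 19.2 CPM, so no library of those groups reached the lowest at low Pi with SynCom. Among the smallest p-values were also the phosphotyrosine phosphatase gene PFA-DSP4 at 2.27, the phosphoesterase gene AT4G23000 at 1.63 and AT4G26620 at 0.96.

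Among the 10 lowest folds ranked in the same way, AT1G11740, an ankyrin repeat gene, had an interaction of -2.61 ± 0.54 (adjusted p = 0.0161 in edgeR). MIOX1, a myo-inositol oxygenase, held 0.749, 3.18 and 6.41 CPM at low Pi with SynCom, against 6.24, 18.2 and 29.8 CPM at high Pi with SynCom. At low Pi without bacteria it held 6.27, 9.48 and 18.4 CPM, and 5 of 6 libraries at low Pi with SynCom lay below all of either comparison group. Its interaction was -2.19 ± 0.54 (adjusted p = 0.034 in edgeR). UMAMIT47, of an amino acid transporter family, stood at -1.94, the sugar transporter-like gene SFP2 at -1.68, the mechanosensitive channel gene MSL5 at -1.68 and the remorin gene AT5G23750 at -1.71. The others of the 10 lowest were AT2G38180, AT5G44260, AT5G23870 and AT1G02620, from -1.70 to -1.58. The RING/U-box gene AT1G17970 at -1.19 and the serine carboxypeptidase gene SCPL13 at -1.49 were among the smallest p-values.

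All 22 salicylic acid genes tested, of 25 in the list, had an interaction above 0, against 9248 of the 17016 genes tested. PAD4 and GRXS13 passed as higher and 0 as lower, where 1.69% of all genes tested were higher. Their list had a median of 1.24. The list median was 1.5, 2.38 and -0.02 for C, D and E fitted singly. PAD4, a regulator of salicylic acid defence, held 20.2, 46.5 and 93.4 CPM at low Pi with SynCom, against 9.70, 12.9 and 41.0 CPM at high Pi with SynCom. The levels without bacteria were 9.98, 18.4 and 33.7 CPM at low Pi and 8.81, 28.8 and 36.1 CPM at high Pi. The groups with SynCom overlapped, and the interaction was 1.87 ± 0.49 (adjusted p = 0.0411 in edgeR). The glutaredoxin gene GRXS13 rose by 2.21 ± 0.58, at 2.59, 3.12 and -0.02 within C, D and E. With SynCom, low against high Pi raised 14 of the 22, where 10.5% of all genes tested rose. PR1, the classical marker of this pathway, was among them at 5.83 ± 0.95 (adjusted p = 0.000389 in edgeR), but its interaction was 1.85 ± 2.16. Without experiment C 0 of the 22 were called for that Pi response, and without D 1 was. Of 28 genes of pattern-triggered immunity tested, of 31, 0 passed in the interaction, though 26 lay above 0. The median was 1.15, with medians of 0.54, 2.55 and 0.35 in the 3 experiments alone. In the Pi response with SynCom 7 of the 28 rose and 21 were not called. Of 25 jasmonate genes tested, of 27, 0 passed, with a median of -0.05. Their Pi response with SynCom had a median of -0.63, with 2 higher, 1 lower and 22 not called.

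Nutrient lists other than Pi gave at most 2 calls each, where 2.92% of all genes tested were called. Of 18 iron deficiency genes tested, of 24, CYP82C4 and the ferric reductase gene FRO2 passed, with a list median of 0.38. CYP82C4, which makes a coumarin secreted under iron shortage, rests on experiment E. It held 0, 0 and 24 CPM at low Pi with SynCom, against 0, 0.353 and 1.04 CPM at high Pi with SynCom. Without bacteria it held 0, 0.399 and 18.8 CPM at low Pi and 0, 0.330 and 63.2 CPM at high Pi. In every group both libraries of experiment E held the highest levels, while those of C and D held less than 0.5 CPM. Of the single experiments, it passed the filter on low counts in E only. FRO2 stood at 2.22 ± 0.54 (adjusted p = 0.033 in edgeR), with 1.42 in experiment C and 2.22 in E, and was not tested in D alone. Of 24 nitrate genes tested, of 27, LBD37, a repressor that responds to nitrogen, rose by 0.67 ± 0.15 and the nitrate transporter NRT1.1 fell by 1.00 ± 0.27, and the list median was 0.13. Of 8 anthocyanin genes tested, of 18, C4H, an early phenylpropanoid enzyme, rose by 0.82 ± 0.18.

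The remaining lists gave 0 calls in the interaction at a background of 2.92%. Their medians were -0.45 over 22 aliphatic glucosinolate genes, 0.43 over 13 indole glucosinolate and tryptophan genes, -0.34 over 10 sulphur deficiency genes and 0.67 over 5 ferritin and iron storage genes. They were 0.56 over 7 heat shock genes, 0.29 over 15 xenobiotic genes, 0.16 over 10 abscisic acid genes, -0.37 over 9 senescence genes and 0.28 over 19 cell cycle genes. The 6 reference genes had a median of 0.08, and the 5 genes of the PHR1 family, which include the mutated pair, a median of -0.05. PHR1 stood at -0.39 ± 0.24 and PHL1 at 1.45 ± 0.59 (adjusted p = 0.347 and 0.153 in edgeR). The value of PHL1 leaned on library 1 of experiment D at high Pi without bacteria: it was 0.62 without the pair of libraries that stood apart, to which this one belongs (adjusted p = 0.174), against 1.52 over 72 libraries (adjusted p = 0.0304) and 1.56 over the whole series (adjusted p = 0.00786).

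Tissue markers gave 0 calls in the interaction. All 30 photosynthesis genes, used as shoot markers, had an interaction below 0, with a median of -0.44, and 18 of the 30 were lower at low than at high Pi with SynCom, where 8.66% of all genes tested were lower. Their summed level was 93131 CPM at low Pi with SynCom (82990 to 104202), against 140585 CPM at high Pi with SynCom (88059 to 216415). Without bacteria it was 112007 CPM at low Pi (100762 to 123148) and 120024 CPM at high Pi (94939 to 155904). Root hair markers summed to a median of 20.9 (14.6 to 189.4), 24.5 (17.9 to 184.6), 30.9 (18.0 to 147.3) and 35.2 CPM (18.2 to 117.4) in the same order of groups. Endodermis and stele markers summed to 151 (100.9 to 264.5), 121 (95.9 to 239.2), 204 (123.6 to 359.3) and 202 CPM (165.4 to 338.2). Fitted alone, experiments C, D and E had 3, 2 and 10 root hair genes that passed the filter. No member of these lists was at 0 in all 24 libraries, and 11 root hair genes had a median interaction of -0.19 and 15 endodermis and stele genes one of 0.17. In whole seedlings, fewer cells of a type and less RNA per cell cannot be told apart, and the part of tissue makeup in the gene groups above was not tested.

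**Figure D3:**
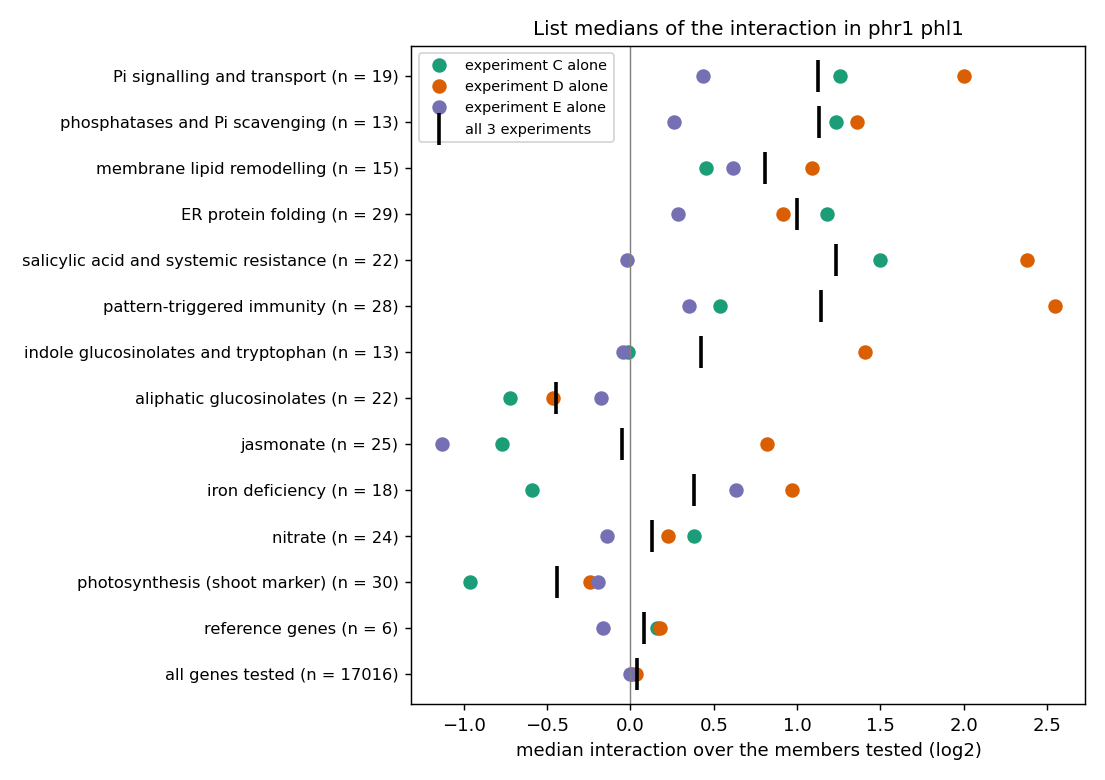
Median Pi by SynCom interaction (x axis, log2) over the tested members of selected lists and over all genes tested (y axis). Points are experiments C, D and E fitted alone, and bars are all 3 together. The median of the Pi signalling and transport list was 1.13 and ran from 0.44 in experiment E to 2.0 in D, while all genes tested had a median of 0.04.

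The same interaction was then compared between genotypes. Fitted with phr1 and Col-0 over 72 libraries and 18216 genes, phr1 phl1 had 468 called genes (2.57%), 247 higher (1.36%) and 221 lower (1.21%). In phr1 939 were called (5.15%), 589 higher (3.23%) and 350 lower (1.92%), and in Col-0 1767 (9.7%), 909 higher (4.99%) and 858 lower (4.71%). A gene called in one genotype and not in another is not thereby different between them, so the difference was tested. For phr1 phl1 minus Col-0 it was called for 5 genes (0.0274%), 1 higher (0.00549%) and 4 lower (0.022%), with 1767 at an unadjusted p under 0.05. For phr1 phl1 minus phr1 it was called for 0 genes (0%) in edgeR, DESeq2 and limma-voom, with 935 at an unadjusted p under 0.05 in edgeR. The median standard error of the difference from Col-0 was 0.39, which gives an unadjusted 95% interval of 0.76 to either side for a typical gene. A call after adjustment over 18216 genes needs a larger difference, and the smallest called one in size was -2.23 for AT4G31240. Differences well above 0.76 could therefore also go uncalled.

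No gene of the 3 Pi starvation lists differed from Col-0 in that test, though the medians were lower in phr1 phl1. The Pi signalling and transport list had a median interaction of 1.09 in phr1 phl1, 1.94 in phr1 and 2.56 in Col-0. For the phosphatase list the medians were 1.11 in phr1 phl1, 1.84 in phr1 and 2.53 in Col-0, and for the lipid list 0.78, 1.98 and 1.8 in the same order. Over 72 libraries 23, 16 and 17 members of these lists were tested, against 19, 13 and 15 in the phr1 phl1 libraries alone. The added members failed the filter on low counts in phr1 phl1 alone, which can favour larger medians in the other genotypes. SPX1 stood at 2.49 ± 0.48 in phr1 phl1, 4.69 ± 0.52 in phr1 and 5.01 ± 0.49 in Col-0. Its difference from Col-0 was -2.52 ± 0.67 with an adjusted p of 0.15 over 72 libraries and -2.29 ± 0.60 with an adjusted p of 0.0368 over the whole series, in edgeR. Over the whole series PAP12, SQD2, NPC4, GDPD3, PAH1 and PHT5;1 were also lower in phr1 phl1 than in Col-0 and PHO2 was higher. That fit called 218 of 18926 genes, 113 of them higher. The whole series adds experiments A and B, which hold Col-0 and phr1 but no phr1 phl1. In that fit a genotype difference cannot be fully told apart from a difference between experiments. Over 72 libraries without experiment E, 10 genes of these lists were called lower than in Col-0: SPX1, PHO1;H1, PHT5;1, PAP12, PPCK1, MGD3, SQD2, NPC4, GDPD3 and PAH1. Among all 17717 genes of that fit 367 were called, 214 of them higher. NPC4 and GDPD3 had too few counts to be tested in the phr1 phl1 libraries alone.

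For GDPD1 and SQD1 the difference from Col-0 was smaller than its standard error over 72 libraries but not over the whole series, and the values of PHO2 and LPR2 were higher in phr1 phl1. GDPD1 stood at 2.49 ± 0.33 in phr1 phl1, 3.31 ± 0.35 in phr1 and 2.73 ± 0.34 in Col-0, a difference from Col-0 of -0.23 ± 0.47. SQD1 stood at 1.62 ± 0.22, 2.29 ± 0.23 and 1.79 ± 0.22 in the same order, a difference of -0.17 ± 0.32. Over the whole series the differences from Col-0 were -0.52 ± 0.45 for GDPD1 and -0.64 ± 0.37 for SQD1 (adjusted p = 0.597 and 0.385 in edgeR). BIP2 stood at 1.36 ± 0.34, 1.27 ± 0.34 and 1.53 ± 0.34. PHO2 stood at 1.09 ± 0.27 in phr1 phl1, 0.51 ± 0.27 in phr1 and -0.09 ± 0.27 in Col-0, a difference from Col-0 of 1.18 ± 0.38 (adjusted p = 0.26 in edgeR over 72 libraries, and 0.0386 over the whole series). LPR2 stood at 1.12 in phr1 phl1, 0.38 in phr1 and 0.33 in Col-0. The ER list, with 29 members, had a median of 0.97 with 11 called in phr1 phl1, 0.82 with 14 called in phr1 and 0.70 with 13 called in Col-0.

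**Figure D4:**
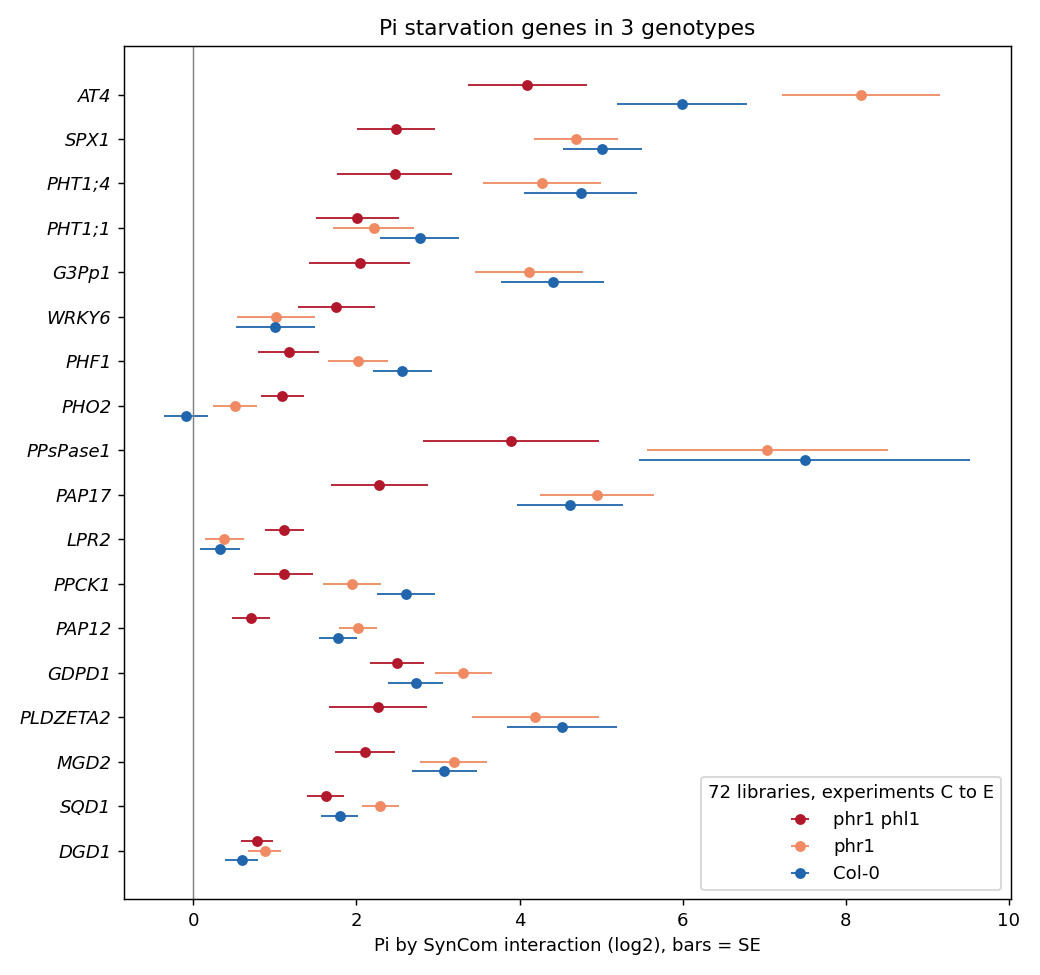
Pi by SynCom interaction (x axis, log2, bars are the SE) of the Pi starvation genes called in phr1 phl1 other than AT1G13750 (y axis). Values are those of phr1 phl1, phr1 and Col-0, fitted over 72 libraries of experiments C to E with 6 per group. The points of phr1 phl1 lie below those of Col-0 for SPX1 (2.49 against 5.01) and above them for PHO2 (1.09 against -0.09), and close to them for SQD1 (1.62 against 1.79).

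The 5 genes whose interaction differed between phr1 phl1 and Col-0 lay outside the lists. AT2G43535, a gene of the knottin superfamily, had an interaction of 0.15 in phr1 phl1 and 2.92 in Col-0, a difference of -2.77 ± 0.48 (adjusted p = 0.00445 in edgeR). Its level was 19.6, 77.9 and 115 CPM at low Pi with SynCom and 17.6, 67.2 and 87.1 CPM at high Pi with SynCom in phr1 phl1. In Col-0 it was 66.8, 487 and 1349 CPM at low Pi with SynCom, against 18.6, 65.2 and 71.4 CPM at high Pi with SynCom. The pair of groups overlapped in phr1 phl1 and, by its lowest library, also in Col-0. AT3G50350 stood at 0.23 in phr1 phl1 and 3.78 in Col-0, a difference of -3.55 ± 0.68. AT4G31240 stood at -0.10 in phr1 phl1 and 2.13 in Col-0, a difference of -2.23 ± 0.45, and MDP40 at -3.14 in phr1 phl1 and 1.03 in Col-0, a difference of -4.17 ± 0.81. AT4G39675 was the 1 gene higher in phr1 phl1, at 1.2 ± 0.47 against -2.08 ± 0.49 in Col-0, a difference of 3.28 ± 0.68 (adjusted p = 0.0298 in edgeR). It held 36.9, 97.3 and 114 CPM at low Pi with SynCom and 13.9, 27.4 and 56.3 CPM at high Pi with SynCom in phr1 phl1, against 1.22, 8.16 and 18.4 CPM and 19.5, 41.1 and 59.5 CPM in those groups of Col-0. All 5 lost their call without experiment C, without D or with summed libraries.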

How the data were processed

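The deposited table holds raw read counts per gene for every library of the series. Per the submitters' processing notes, CASAVA 1.8, cutadapt 1.3, TopHat2 2.1.1, HTSeq 0.6.1p1 and build TAIR10 were used. What each did, and with which options, is not stated in the sources used here. The libraries carry no strand, per the labels. Of 27206 loci 3071 had no count in any phr1 phl1 library, and 26719 were named from the TAIR10.1 gene table.

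Counts of the 24 libraries were filtered by filterByExpr, scaled by TMM and fitted with edgeR 4.0.16 in R 4.3.3, with 1 term per group and a term for experiment. Contrasts were tested by quasi-likelihood F tests, adjusted by Benjamini-Hochberg over all genes at 0.05, and every adjusted p comes from it unless another tool is named. Levels are CPM with TMM scaling. Level differences between genes were not read, because the counts are not per length. The genotypes were compared in the same model over 72 libraries, whose CPM scale differs slightly. The procedure was tested on simulated counts. These were drawn without differences between experiments, so that test does not cover such differences.

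The members and the 23 gene lists (428 genes) were chosen with earlier results of these data known, and an ER protein folding list was added after values were seen. Genes were named by a rule: PHR1 and PHL1, the 10 highest and 10 lowest called folds and the 10 smallest p among genes of at least 1 CPM in a group with 1 sign in all 3 experiments, up to 4 members of each list by p, and up to 5 genes in each direction that differed between genotypes. Called list members, members just past the threshold, IPS1, PR1 and ER genes outside the rule were named after their values were seen.

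No pair of libraries within a group was counted as a duplicate: chi-square over genes, divided by its degrees of freedom, was at least 1.93 in all 60 pairs. Total counts ran from 955174 to 6852137, and the median standard error of the interaction was 0.24. The alternatives were scaling by RLE or upper quartile, filters of none or 5 CPM in 6 libraries, DESeq2 1.42.0, voom in limma 3.58.1, no experiment term, a replicate block, summed libraries, each experiment left out, and fits over 72 libraries and over the whole series. Fits without the 2 libraries that stood apart (under 1000000 counts or residual SD over 0.6) and with a term for each group in each experiment were chosen after seeing the data.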

Additional observations from a re-analysis of the deposited data

Results flagged for a closer look

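In 5 cases a single value stood apart from the other 5 libraries of their group, among 124 groups of 6 checked, where chance flags about 1 group in 20. PHL1 held 972 CPM in library 1 of experiment D at high Pi without bacteria, the library with the highest residual SD. PHR1 held 27.8 CPM in library 1 of experiment E at low Pi without bacteria. AT4 held 23.0 CPM in library 1 of experiment C at high Pi with SynCom, BIP2 held 116 CPM in library 1 of experiment E at high Pi without bacteria, and CYP82C4 held 24 CPM in library 2 of experiment E at low Pi with SynCom.

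The interaction differed between phr1 phl1 and Col-0, by a test of the difference itself, for 5 genes. The difference was 3.28 for AT4G39675, -4.17 for MDP40, -3.55 for AT3G50350, -2.77 for AT2G43535 and -2.23 for AT4G31240. Of these, limma-voom called AT2G43535 alone.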

How the results depend on the processing

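The interaction in phr1 phl1, with 497 calls, gave 1138 with DESeq2, 793 over the whole series, 1319 with a term for each group in each experiment, 3 without an experiment term and 0 with summed libraries. It gave 0 without experiment C, 4 without D and 2243 without E. The Pi response with SynCom gave 763 calls without an experiment term, 777 summed, 1.0e+02 (81 higher and 23 lower) without C, 546 without D and 5034 without E. For SynCom at low Pi the counts were 389, 498, 185, 600 and 3292 in the same order of settings. For SynCom at high Pi they were 657 with DESeq2, 32 without an experiment term, 23 summed, and 50, 190 and 537 without C, D and E. The difference between phr1 phl1 and Col-0 gave 39 with DESeq2, 1 with limma-voom, 2 without an experiment term, 0 summed, 0 without C or D and 367 without E. It gave 218 over the whole series, which adds experiments that hold no phr1 phl1. In Col-0 the interaction gave 336 without an experiment term, 182 summed, and 93, 82 and 3733 without C, D and E. In phr1 it gave 1585 with DESeq2, 152 without an experiment term, 55 summed, and 19, 191 and 3042 without C, D and E. The other 86 values of these counts stayed within 1.5 times of those reported, and the counts of 0 for the Pi response without bacteria and for phr1 phl1 minus phr1 stayed at 0 under every setting run. Summed libraries and left-out experiments have fewer samples, and the cause of the higher counts was not tested.

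Replicate numbers did not pair the libraries: within an experiment, the deviations of same-numbered libraries had a median correlation of -0.0148, and a replicate block of experiment and number gave 165 calls for the interaction. TMM, RLE and upper-quartile scaling put 57.9%, 48.9% and 52.3% of the called genes on the higher side. Named results that were called kept their direction under every setting, with the call kept in 688 cases and lost in 337. Of the results not called, LTI30 turned to -0.27 without D, RHIP1 to -0.01 without C, and TIP41 to -0.00 with summed libraries and -0.05 without C. Genes under the filter lie past what this depth and number of libraries resolve. For a typical gene so do differences from Col-0 below about 0.76 before any adjustment, and larger ones can go uncalled after it.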

Other observations

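Of 15 xenobiotic genes tested, 7 fell and 1 rose with SynCom at low Pi, and 9 fell and 0 rose with SynCom at high Pi, with medians of -1.27 and -1.62. Of all genes tested 5.31% fell at low Pi and 1.45% at high Pi. At low Pi 5 fell and 3 rose without experiment E, with a median of -0.50, and 5 fell with summed libraries. At high Pi 3 fell with summed libraries, 6 fell without experiment C, and 7 fell without D or without E. Without the pair of libraries that stood apart 7 fell and 1 rose at low Pi, and 9 fell and 0 rose at high Pi. CYP81D11, a cytochrome P450 gene, held 1.19, 4.57 and 8.06 CPM (lowest, median and highest of 6 libraries) at low Pi with SynCom, against 12.9, 19.8 and 91.5 CPM at low Pi without bacteria. At high Pi it held 0.447, 3.25 and 9.36 CPM with SynCom, against 12.6, 28.2 and 74.8 CPM without bacteria. The groups did not overlap at either Pi level. GSTU24, a glutathione transferase gene, fell by 2.73 ± 0.30 at low Pi and by 2.79 ± 0.29 at high Pi, and CYP81D11 overlaps another annotated gene.

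Of 15 endodermis and stele genes tested 5 fell with SynCom at low Pi and 5 at high Pi, with 0 higher, beside the same 5.31% and 1.45% of all genes. CASP1, which builds the Casparian strip, fell by 1.43 at low Pi and by 1.87 at high Pi, and the suberin gene CYP86A1 fell by 0.85 and by 1.46. Without the pair of libraries that stood apart 6 fell at low Pi and 2 at high Pi, and without experiment C 0 fell at either, with medians of -0.68 and -0.90. With summed libraries 1 fell at low Pi and 0 at high Pi. Without experiment D 2 fell at high Pi, and without E 3 fell at each.

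Of 5 ferritin and iron storage genes tested, 3 fell with SynCom at high Pi: VTL2 by 1.71, VTL5 by 1.86 and VTL1 by 1.37. Of all genes tested 1.45% fell in this comparison. The count was 1 without experiment C, without experiment E or with summed libraries, and at low Pi 1 of the 5 fell, with a median of -0.05. These genes belong to the vacuolar iron transporter family.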
